A study of Mus musculus with 18 samples.

Results

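A set of 8 genes of the pre-mRNA splicing machinery and its regulators was followed through 18 mouse RNA sequencing libraries: Ccnl1, Ccnl2, Cwc22, Rsrp1, Srsf5, Srsf6, Clk1 and Clk4, 8 of the 32941 genes in each table. Ccnl2, Cwc22, Rsrp1 and Srsf5 were chosen by their measured change, a rise in both overexpression sets of the study. Ccnl1, Srsf6, Clk1 and Clk4 were added as relatives of those genes. The changes in the overexpression sets are therefore given for all 8 as a description, without a test. The stages and the Pex7 knockdown played no part in the choice and were tested.

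The study, by its title, concerned ether lipid synthesis by peroxisomes during neurogenesis in the cortex. Wild-type brain was sampled at embryonic days 11, 12, 13, 14, 16 and 18 (E11 to E18), with 1 library per stage in the files used here, although the design text speaks of triplicates. Primary neural stem cells carried a scrambled short hairpin RNA (NSC-Scramble, 2 libraries, labelled wild type) or one against Pex7 (NSC-Pex7sh, 2 libraries, labelled PEX7-knockdown). A first overexpression set compared PLA1 (2 libraries, PLAAT3-PEX11 overexpression) with Ctrl1 (2 libraries, wild type), and a set named for neurons compared Neuron-PLA (2 libraries, PLAAT3-PEX11 overexpression) with Neuron-ctrl (2 libraries, wild type). Brain is the labelled source of both overexpression sets. The labels give no mouse strain, no age for the perturbed material, no promoter or vector for the construct and no statement of how neurons were obtained. Whether the paired libraries of a group are biological repeats is not stated either, so p-values here reflect library-to-library spread that could be technical alone.

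A newly made transcript is spliced by the spliceosome, a large assembly of small nuclear RNAs and proteins. SR proteins, named for stretches of alternating serine and arginine, bind exons and help to define them, and kinases of the Clk and Srpk families phosphorylate those stretches and so govern where SR proteins sit in the nucleus. Several transcripts of SR proteins and of Clk kinases are known to be held back in the nucleus with an unspliced intron, or to be spliced to forms that are degraded, so that their own output is under splicing control. Cyclin L1 and cyclin L2 (Ccnl1, Ccnl2) are partners of the kinase CDK11 in nuclear speckles. CWC22 is a spliceosome protein that recruits EIF4A3, the core of the exon junction complex, and RSRP1 is a protein rich in arginine and serine.

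Values were RPKM, reads scaled by exon length and by the read total of the library. Read totals recovered from them ran from 41501879 to 54373313 for the stages and from 16147911 to 28104928 for the 12 other libraries, and each member rested on at least 975 reads in every library. Whether both mates of a pair were counted as reads is not given in the sources used here. Even read numbers made up 53.5% to 55.0% of values in the stages and 47.4% to 49.1% in the other libraries, so the stage totals and read numbers may not count the same unit as the others. Counting error was thus small for the members. Plaat3 went from 0.413 and 0.431 RPKM in Ctrl1 to 31.4 and 29.1 in PLA1, and from 0.0699 and 0.230 in Neuron-ctrl to 19.0 and 20.8 in Neuron-PLA, the direction the labels name. Neural marker genes were present in every group, whereas the 5 endothelial markers summed to at most 0.879 RPKM in the first set and 0.761 RPKM in the neural stem cells, against 16.1 to 38.0 RPKM in the stages.

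The promoters of 7 members were present in the RefSeq table (GRCm38.p6), with none for Clk1. They are shown because 5 of them hold the same 6 letters, TGACGT, the half-site of the cyclic AMP response element followed by a T. Without that last T, the half-site is also present in the printed bases of Srsf5 and, on the other strand, of Cwc22. The split between the 5 promoters and those of Srsf5 and Cwc22 therefore rests on the last T alone. The last 100 bases before the RefSeq start are printed 5′ to 3′ on the gene's strand, with TGACGT on either strand, or the full element TGACGTCA, in capitals.
Ccnl1, chr3:65958250-65958349, minus strand: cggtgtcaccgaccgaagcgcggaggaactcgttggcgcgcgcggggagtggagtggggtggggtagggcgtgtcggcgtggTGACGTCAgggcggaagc
Ccnl2, chr4:155812389-155812488, plus strand: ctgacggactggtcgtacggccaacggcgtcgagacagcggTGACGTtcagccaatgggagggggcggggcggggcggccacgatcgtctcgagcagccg
Rsrp1, chr4:134923525-134923624, plus strand: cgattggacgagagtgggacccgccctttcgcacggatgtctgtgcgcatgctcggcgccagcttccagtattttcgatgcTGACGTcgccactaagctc
Srsf6, chr2:162931408-162931507, plus strand: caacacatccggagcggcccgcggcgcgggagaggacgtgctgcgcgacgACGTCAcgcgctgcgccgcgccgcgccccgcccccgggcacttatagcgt
Clk4, chr11:51263014-51263113, plus strand: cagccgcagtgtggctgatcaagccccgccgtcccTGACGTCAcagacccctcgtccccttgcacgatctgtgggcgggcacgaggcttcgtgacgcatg
Srsf5, chr12:80945399-80945498, plus strand: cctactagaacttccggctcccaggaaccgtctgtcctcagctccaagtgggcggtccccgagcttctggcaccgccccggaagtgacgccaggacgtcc
Cwc22, chr2:77946357-77946456, minus strand: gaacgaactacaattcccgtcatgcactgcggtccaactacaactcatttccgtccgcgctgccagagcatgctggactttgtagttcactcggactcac
Within 250 bases before the start, TGACGT on either strand was found in 5 of the 7 promoters (Ccnl1, Ccnl2, Rsrp1, Srsf6 and Clk4) and in 6.47% of 32851 promoter entries. Among the 7728 entries with at least 17 CpG dinucleotides, the fewest in any member promoter but that of Cwc22, the share was 11.8%. The full TGACGTCA, which contains TGACGT, was found in Ccnl1 and Clk4 and in 1.55% of all entries. The motif was singled out after the sequences had been seen, and a match is a description of letters, not a site in use. The GC box GGGCGG was present in 6 of 7, against 32.7% of entries, and CCAAT in 2 of 7, against 33.8%. The letters GCATGCGC were found in 1 of 7 (Rsrp1, 2.26% of entries), while TATAAA (12.4%), CACGTG (6.02%) and TGATGNAA (3.45%) were found in 0 of 7, all on both strands. GENCODE M21 places the start of Clk4, Cwc22 and Rsrp1 upstream of the RefSeq start. In that annotation the gene begins within the printed window of Cwc22 and Rsrp1, and the whole searched window of Clk4, its TGACGTCA included, lies inside the gene, which begins at 51261730.

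Levels of the members differed by more than 10-fold within a group. RPKM is per length of all annotated exons merged, from 3349 bases for Rsrp1 to 8132 for Clk1. The lengths of the forms expressed were not measured, so the order of genes within a group holds for this scale only. In Ctrl1 the order was Srsf5 (141 RPKM), Srsf6 (129), Rsrp1 (63.8), Ccnl2 (22.6), Cwc22 (20.6), Ccnl1 (16.9), Clk4 (11.8) and Clk1 (11.5). The last pair did not differ beyond their spread (SD 1.29 for Clk4 and 0.480 for Clk1, n = 2). In Neuron-ctrl Rsrp1 led with 170 ± 1.43 RPKM (SD, n = 2), ahead of Srsf5 at 121 ± 6.18 and Srsf6 at 65.5 ± 7.38, and Cwc22 came last with 7.94 ± 1.93. In NSC-Scramble Rsrp1 (98.7 ± 5.73), Srsf5 (80.6 ± 3.38) and Srsf6 (63.2 ± 7.81) were the highest, followed by Cwc22 (41.6 ± 1.32). Clk1 was the steadiest member, between 11.2 and 18.5 RPKM over all 18 libraries, a 1.65-fold range. Cwc22 was the least steady, between 3.32 and 59.1 RPKM, a 17.8-fold range, against at most 4.25-fold (Ccnl1) for the others. These ranges span 4 tables in which each library was normalised by itself.

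**Figure D1:**
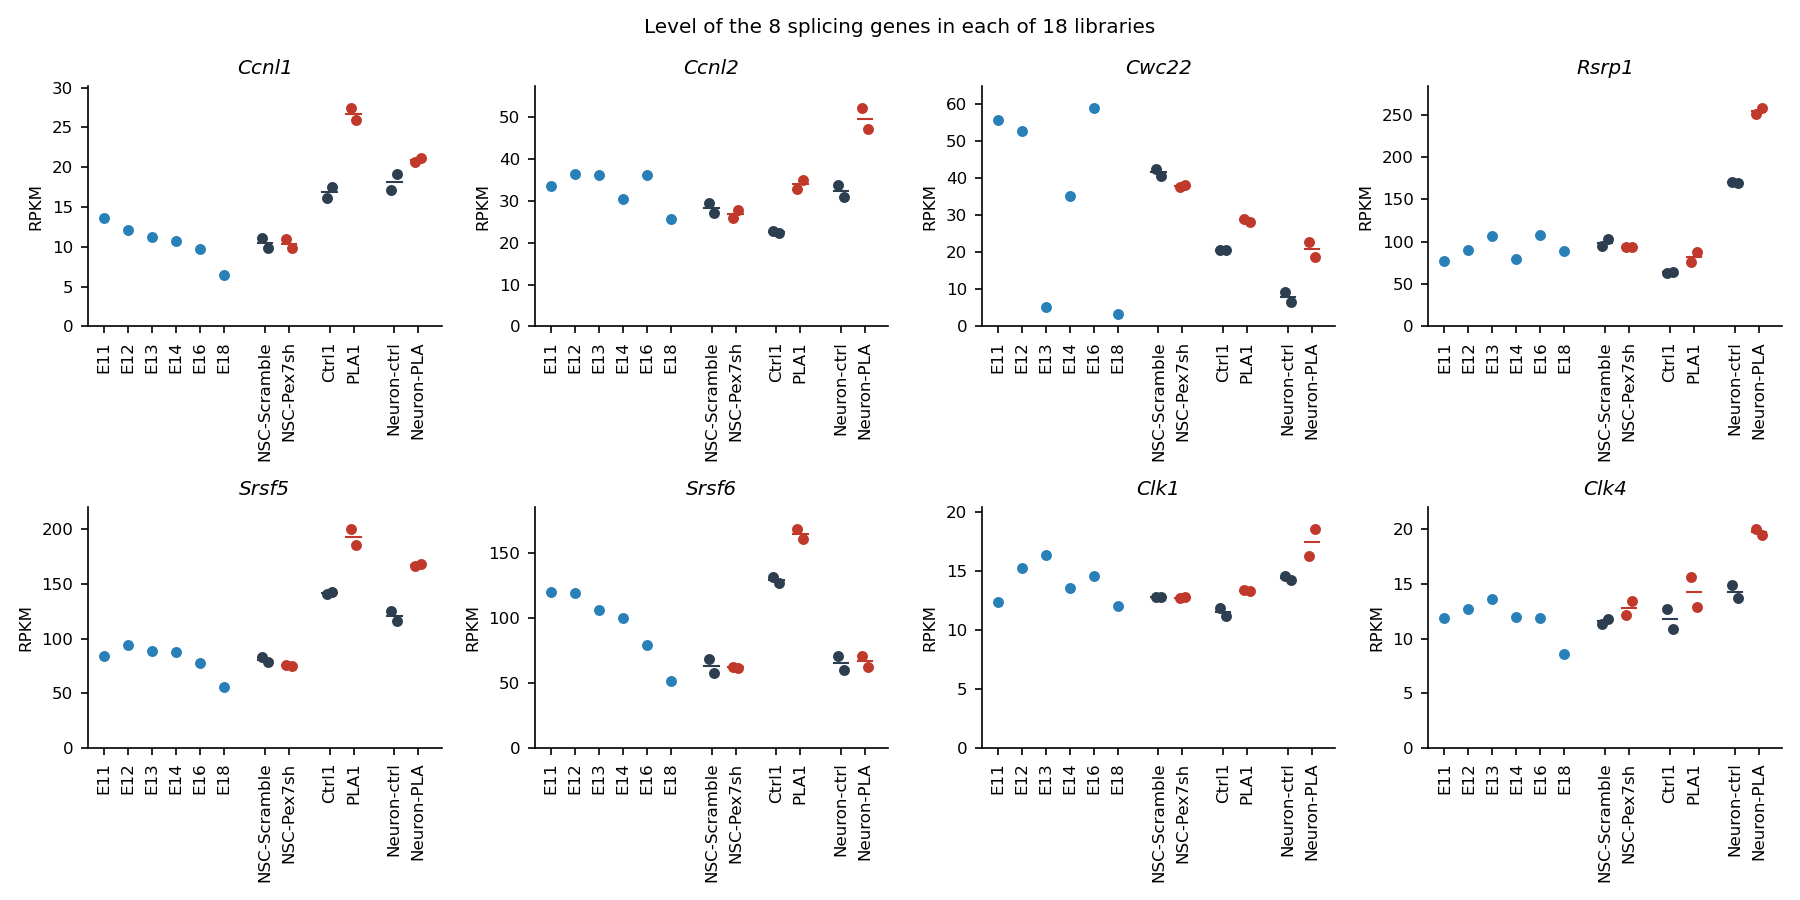
RPKM (vertical axis, linear, from 0) of each member in each of the 18 libraries, by group. Points are libraries and short lines are means of 2. Blue marks wild-type stages, dark points the controls and red points the knockdown or overexpression libraries. The red PLA1 points lie above the dark Ctrl1 points in all 8 panels, and Cwc22 at E13 (5.32 RPKM) and E18 (3.32 RPKM) lies far below the other stages.

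In the first overexpression set all 8 members were higher in both PLA1 libraries than in both Ctrl1 libraries. The same held for 39.6% of the 11623 genes tested, and since this contrast chose members, nothing is read from the count. The median log2 change of the members was 0.40, against 0.06 for all genes tested, on the log2(RPKM + 1) scale used throughout. The choice of members raises that median, so nothing is read from the difference either.

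Among the cyclins, Ccnl1 stood at 16.2 and 17.6 RPKM in Ctrl1 and at 27.5 and 25.9 in PLA1, a ratio of means of 1.58. This was the highest ratio among the 8 in this set. Ccnl2 stood at 22.8 and 22.4 RPKM in Ctrl1 and at 32.8 and 35.0 in PLA1, a ratio of 1.50. The groups of both cyclin L genes were separate. Ccnl2 was chosen by its rise in this contrast, so nothing is read from its gap.

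Cwc22 measured 20.6 and 20.7 RPKM in Ctrl1 and 29.1 and 28.3 in PLA1, a ratio of 1.39. Srsf5 measured 141 and 142 RPKM against 200 and 186, a ratio of 1.36. Srsf6, a close relative of Srsf5 that also acts on alternative exons, measured 131 and 127 RPKM against 168 and 161, a ratio of 1.27. The Ctrl1 libraries were nearly equal for Cwc22 and Srsf5, and the PLA1 libraries of Srsf5 lay further apart. Rsrp1 measured 62.8 and 64.8 RPKM in Ctrl1 and 76.4 and 88.0 in PLA1, a ratio of 1.29.

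The kinases differed least. Clk1 measured 11.9 and 11.2 RPKM in Ctrl1 against 13.4 and 13.3 in PLA1, a ratio of 1.15. Clk4 measured 12.7 and 10.9 RPKM against 15.7 and 12.9, a ratio of 1.21, and its highest control and lowest treated library were only just apart.

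Markers of cell types and states moved in the same libraries, by the limma test with 16.3% of all genes rising and 13.2% falling. Mitosis markers rose for 8 of 8 (sum 246 to 254 RPKM in Ctrl1, 414 to 423 in PLA1), neuronal markers fell for 6 of 8 (909 to 929 against 437 to 455) and microglial markers fell for 7 of the 7 tested (406 to 440 against 180 to 189). Of radial glia markers 5 of 8 rose and 1 fell (289 to 303 against 343 to 345 RPKM). Astrocyte markers summed to 210 to 212 RPKM against 80.1 to 85.2 (of 3 tested 1 rose and 1 fell, and Gfap was at 0 in PLA1), while oligodendrocyte (6.22 to 6.60 against 5.20 to 5.48) and erythroid markers (7.44 to 9.81 against 4.74 to 5.16) had 0 of 2 called each. The part of all these in the values of the 8 members was not tested. In bulk RNA, fewer cells of a type and less RNA per cell cannot be told apart.

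In the neuron set 7 members were higher in both Neuron-PLA libraries than in both Neuron-ctrl libraries, as were 24.7% of the 11179 genes tested, and again nothing is read from the count. The exception was Srsf6, at 70.7 and 60.2 RPKM in Neuron-ctrl and 71.1 and 62.0 in Neuron-PLA, whose groups overlapped. The median log2 change of the 8 was 0.46, against 0.0024 for all genes tested. This contrast also chose members, which raises the median, so nothing is read from that difference.

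Cwc22 stood furthest apart in this set, at 9.31 and 6.58 RPKM in Neuron-ctrl and at 22.7 and 18.9 in Neuron-PLA, a ratio of 2.62. Both pairs were uneven and the groups did not overlap, but Cwc22 was chosen by its rise in this contrast. Both Neuron-ctrl values are low for this gene, below those of the 10 other perturbation libraries and above those of E13 and E18 alone among the stages.

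Rsrp1 stood at 171 and 169 RPKM in Neuron-ctrl and at 251 and 258 in Neuron-PLA, a ratio of 1.50 on the highest base level of any member. Ccnl2 went from 33.7 and 30.8 RPKM to 52.2 and 47.1, a ratio of 1.54, and Srsf5 from 125 and 116 to 167 and 168, a ratio of 1.39. All of these groups were separate. Rsrp1, Ccnl2 and Srsf5 were chosen by their rise in this contrast, so nothing is read from the gaps. The added relatives were more mixed. Ccnl1 went from 17.1 and 19.1 RPKM to 20.7 and 21.2 (1.16), Clk1 from 14.5 and 14.2 to 16.3 and 18.5 (1.21) and Clk4 from 14.9 and 13.7 to 19.99 and 19.5 (1.38).

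Radial glia markers were lower in the treated libraries (sum 309 to 318 RPKM in Neuron-ctrl, 162 to 201 in Neuron-PLA, 2 of 6 tested fell), as were endothelial ones (19.3 to 19.8 against 1.29 to 1.70, the 1 tested fell, and Tek was at 0 in Neuron-PLA). Microglial markers stood at 121 to 125 against 70.5 to 80.5 RPKM, with 1 of 7 lower by the test. Astrocyte markers summed to 206 to 219 against 111 to 136 RPKM (1 of 4 tested fell) and erythroid ones to 82.3 to 89.0 against 30.8 to 40.8 (1 of 3 fell). With 0 called, mitosis markers summed to 50.2 to 54.0 against 36.4 to 38.7 RPKM and oligodendrocyte markers to 50.7 to 54.5 against 40.4 to 45.9. Neuronal markers summed to 2307 to 2369 RPKM in Neuron-ctrl and 2256 to 2328 in Neuron-PLA, with 0 of 8 called. The part of these shifts in the members' values was not tested.

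Both sets have their own controls and share no library. In both sets 7 of the 8 members were above their controls, as were 11.1% of 10424 genes tested in both. Because a rise in both sets chose 4 of these members, nothing is read from the count. Among all genes, 15 (0.144%) passed the test with a rise in both sets, a group that holds the 4 members chosen for it. That count ran from 2 to 17 with 1 library left out, lowest (2 or 3) without Neuron-PLA replicate 1 or either Neuron-ctrl library. At the margin of that choice, the smallest log2 changes among the 4 were 0.36 (Rsrp1, first set) and 0.47 (Srsf5, neuron set), and the nearest relative beyond it was Clk4 with 0.25 and 0.44. Its first-set value was 0.12 without PLA1 replicate 1, 0.15 without Ctrl1 replicate 2, 0.38 without PLA1 replicate 2 and 0.15 with upper-quartile scaling. Ccnl1 (0.63 and 0.20) and Srsf6 (0.35 and 0.03) had the larger value in the first set, and Cwc22 (0.46 and 1.30) in the neuron set. Whether the change differs between the sets was not tested, because both contrasts had served to choose the members.

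**Figure D2:**
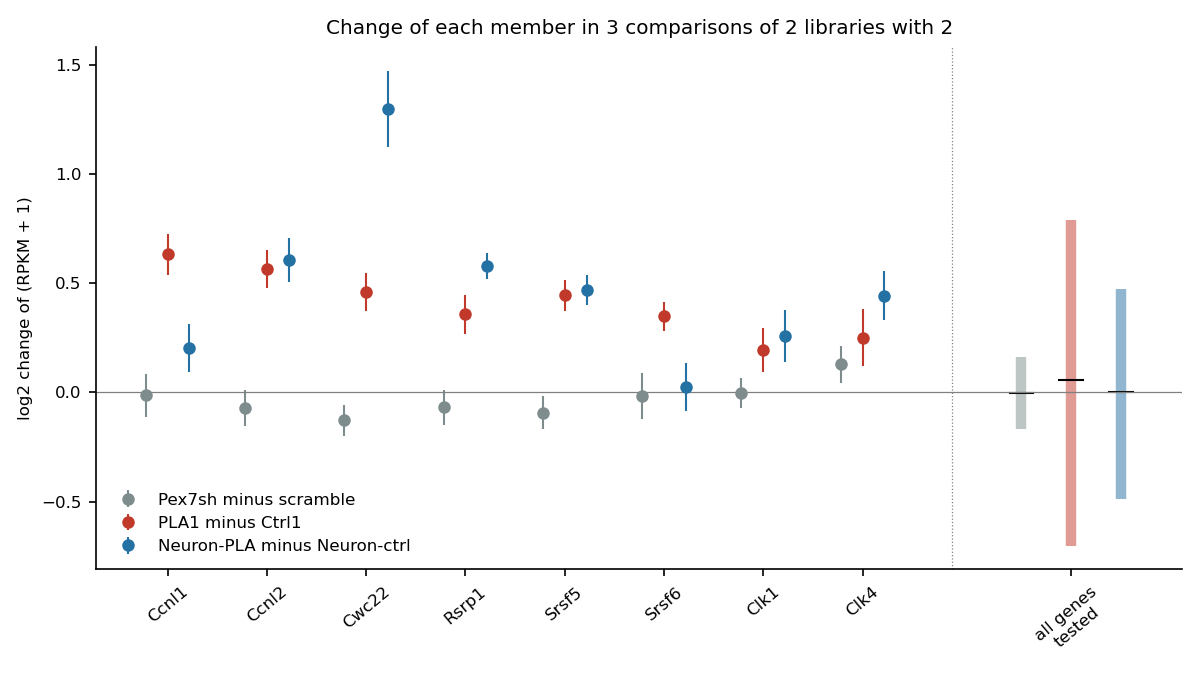
Log2 change of RPKM + 1 (vertical axis) of each member in the knockdown (grey), first (red) and neuron (blue) comparisons, each 2 libraries against 2, with bars of 1 standard error. The columns at the right span the 5th to 95th percentile of all genes tested, with a line at the median. In the first set the members lie between 0.19 and 0.63, inside the broad red column, and in the neuron set Ccnl2, Rsrp1 and Cwc22 lie above the narrower blue one. The red and blue comparisons chose members, so nothing is read from these positions.

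The knockdown of Pex7, which encodes the receptor for a class of imported peroxisomal proteins, gave an independent look at the members. No member passed the test. The limma test called 0 of 8 and 0% of 12482 genes, with 184 genes of the 12482 at an unadjusted p under 0.05 and no member among them. The targeted gene itself stood at 1.19 and 1.22 RPKM in NSC-Scramble and at 0.500 and 0.669 in NSC-Pex7sh. Its mean over these libraries was below the filter of 1 RPKM, so it was not among the genes tested. With 0 of 12482 genes called, the lack of a called member does not show that the members were unchanged.

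Clk1 measured 12.8 and 12.8 RPKM in NSC-Scramble and 12.7 and 12.8 in NSC-Pex7sh, the closest match of the 8. Cwc22 stood at 42.5 and 40.7 RPKM against 37.6 and 38.3, a log2 change of -0.13 (SE 0.07, adjusted p = 1.00). Clk4 differed about as much the other way, from 11.4 and 11.8 RPKM to 12.1 and 13.4, a log2 change of 0.13 (SE 0.08, adjusted p = 1.00). Srsf5 measured 83.0 and 78.2 RPKM against 76.0 and 74.9. Cwc22, Rsrp1 and Srsf5 were lower in both Pex7sh libraries than in both scramble libraries, as were 11.9% of genes, and Clk4 was higher, as were 10.6%. These differences did not pass the test. Srsf6 measured 68.7 and 57.7 RPKM within the scramble pair and 62.5 and 61.9 in the Pex7sh pair, so the spread within the controls exceeded the difference between the group means. The scramble libraries also differed in mitosis markers, whose sum was 104 RPKM in one and 194 in the other, against 135 to 152 in the Pex7sh pair. They differed as well in radial glia (823 to 1160, against 1034 to 1040), neuronal (988 to 1342, against 1172 to 1185) and oligodendrocyte markers (216 to 428, against 321 to 322). Astrocyte markers were closer in the scramble pair (77.5 to 81, against 81.8 to 96.8). The part of these in the values of Srsf6 was not tested.

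Across the stages 3 of 8 members fell with embryonic day (Srsf6, Ccnl1 and Srsf5) and 0 rose, while 25.5% of 12921 genes fell and 19.6% rose. Srsf6 measured 120, 119, 106, 99.97, 79.3 and 51.3 RPKM from E11 to E18. Its log2 slope was -0.17 per day (SE 0.03, limma adjusted p = 0.00207), and each stage was below the one before it. Ccnl1 measured 13.7, 12.1, 11.2, 10.8, 9.79 and 6.47 RPKM, with a slope of -0.12 per day (SE 0.02, adjusted p = 0.00491). Srsf5 measured 84.4, 94.0, 88.8, 87.4, 77.7 and 55.6 RPKM, with a slope of -0.09 per day (SE 0.03, adjusted p = 0.0352). Its decline lay at the late end, since E12 to E14 were above E11.

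The calls of Ccnl1 and Srsf5 did not hold without E18. Without the E18 library 1 of 8 members was called, Srsf6, and the adjusted p was 0.0836 for Ccnl1 and 0.491 for Srsf5, which was also lost without E12 (0.0791), without E13 (0.0683) or with no filter on low values (0.0543, 2 of 8 members called). Clk4, at 11.8, 12.7, 13.6, 12.0, 11.9 and 8.62 RPKM, did not pass with all stages (adjusted p = 0.107) and passed without E11 (0.0485). Ccnl2 (25.6 to 36.4 RPKM, adjusted p = 0.196), Clk1 (12.0 to 16.3, 0.618) and Rsrp1 (76.9 to 108, 0.553) did not pass. E18 was the lowest stage for 7 of the 8 members, all but Rsrp1. Mitosis markers fell with day in the same libraries, 8 of 8, from a sum of 352 RPKM at E11 to 18.7 at E18, and neuronal markers rose for 6 of 8, from 1048 to 3466 RPKM. Astrocyte markers went from 26.1 to 152 RPKM (of 4 tested 3 rose and 1 fell), oligodendrocyte markers from 29.0 to 73.2 (2 of 5 rose) and erythroid markers from 1957 to 253 (2 of 4 fell). The part of these in the members' slopes was not tested.

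Cwc22 followed no steady course over the stages. It measured 55.8 RPKM at E11, 52.7 at E12, 5.32 at E13, 35.3 at E14, 59.1 at E16 and 3.32 at E18. E13 and E18 thus stood far below the stages around them, on 1935 and 1233 reads. The slope did not pass the test (-0.33 per day, SE 0.21, adjusted p = 0.231). The residual SD around the slope was 1.66 on the log2 scale, the 11th highest of 8208 genes that averaged 5 RPKM or more, whose median was 0.17. The other 7 members lay between 0.11 (Ccnl1) and 0.22 (Rsrp1).

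The nearest measured genes around Cwc22 on chromosome 2, all far from it, did not share the swing. They had a stage mean of 1 RPKM or more, lay 600567 to 1506146 bases away and were picked after the values of Cwc22 had been seen. Sestd1 and Plekha3 lay on one side and Ube2e3 and Neurod1 on the other. Their highest stage was 1.75, 1.50, 1.70 and 2.89 times their lowest. A change limited to the surroundings of Cwc22 could not show in genes so far away, so nothing is read from these values. Cwc22 (ENSMUSG00000027014, mm10 chromosome 2, 77881159 to 77946375, minus strand, 25 merged exons) lies in a segment known to differ in copy number between mouse strains. The strain is not in the labels and gene copies were not measured here, so the part of copy number in its values was not tested. The difference between the neuron groups, 7.94 against 20.8 RPKM, is smaller than the range of this gene among wild-type stage libraries.

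**Figure D3:**
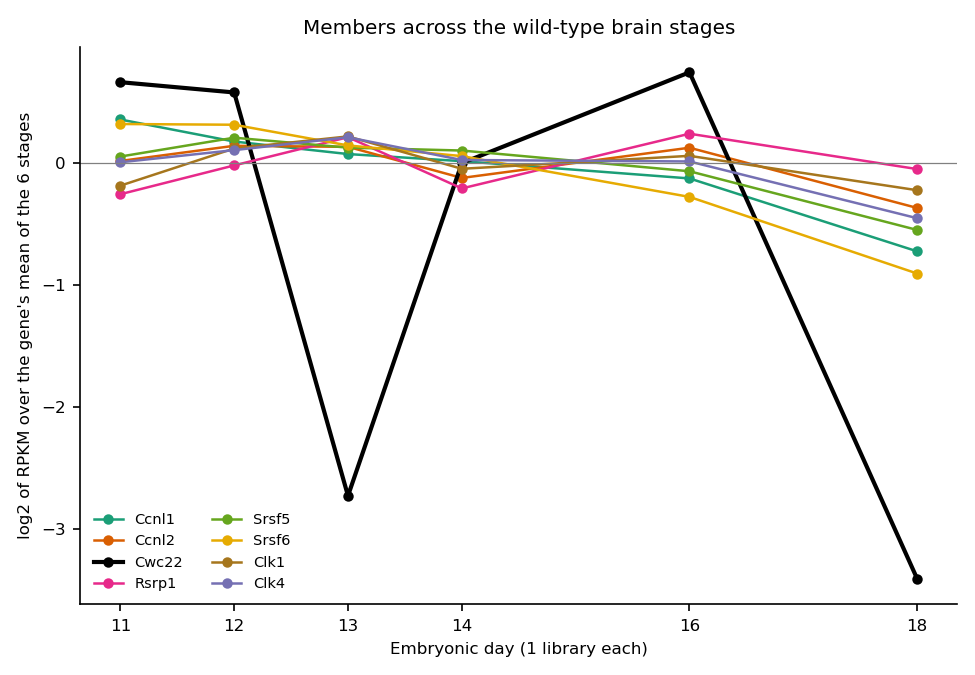
Log2 of each member's RPKM over its own mean of the 6 stages (vertical axis) against embryonic day (horizontal axis), 1 library per stage. The thick black line is Cwc22, which drops at E13 and E18 while the other 7 lines stay within about 1 log2 unit of their mean.

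In GENCODE M21 the other members are Ccnl1 (ENSMUSG00000027829, chromosome 3), Ccnl2 (ENSMUSG00000029068, chromosome 4), Rsrp1 (ENSMUSG00000037266, chromosome 4), Srsf5 (ENSMUSG00000021134, chromosome 12), Srsf6 (ENSMUSG00000016921, chromosome 2), Clk1 (ENSMUSG00000026034, chromosome 1) and Clk4 (ENSMUSG00000020385, chromosome 11). Exons of an antisense gene, Gm37305, overlap 442 bases of the 5997 of Ccnl1, and the strand setting of the counting is not given in the sources used here, so reads there are uncertain. Small overlaps exist for Cwc22 (187 bases, Gm13727) and Clk4 (59 bases, Gm25082). The tables are per gene, so spliced and intron-retaining forms of a member were not separated.

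The wider splicing machinery was described with 8 lists that hold no member. In the first overexpression set SR-related and nuclear speckle proteins, which share the nuclear compartment of cyclin L, had 15 of 27 genes raised and 0 lowered (median log2 change 0.45, SD 0.25), against 16.3% and 13.2% of all genes. Scaf4, which acts at the end of transcription, rose from 6.67 ± 0.278 to 12.6 ± 0.205 RPKM (log2 change 0.82, adjusted p = 0.00235), and the speckle scaffold Srrm2 from 24.9 ± 1.43 to 41.7 ± 7.18 (0.71). Of 23 hnRNP proteins, which often oppose SR proteins at exons, 9 rose and 0 fell (median 0.27), among them Hnrnpu (0.78), Hnrnpul1 (0.72) and Hnrnpd (0.71). Of 10 genes of nonsense-mediated decay, the pathway that destroys transcripts with premature stops, 5 rose and 0 fell (median 0.39), with Smg9 at 0.63 and Upf3b at 0.44 among them.

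The core was less uniform. Of 50 core spliceosome genes tested 12 rose and 4 fell (median 0.06), with Sf3a2 (0.81), Sf1 (0.61) and Ddx23 (0.52) up and Sf3b6 (-0.67), Snrpg (-0.59) and Snrpd2 (-0.44) down. Of 11 SR proteins 4 rose and 1 fell (median 0.22). Srsf9 rose by 0.53, Srsf2 by 0.48 and Srsf11 by 0.38, and Srsf12 fell by 0.56. Of 7 SR protein kinases tested 2 rose, Clk2 (0.70) and Prpf4b (0.52), and Srpk2 fell by 0.44. Of 9 exon junction genes 3 rose and 1 fell, with Pnn (0.78), Casc3 (0.65) and Rnps1 (0.35) up and Magoh, whose protein binds the complex as a stable pair, at -0.44. Eif4a3, the direct partner of CWC22, did not pass (0.02, adjusted p = 0.891). None of 12 transcription cyclins and kinases passed, and their median was 0.29. At an unadjusted p under 0.05 there were 2 of the 12, against 42.6% of all genes. Cdk11b, the cyclin L partner, stood at 0.38 (adjusted p = 0.0752).

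Over all 8 lists 50 of 149 genes rose and 7 fell in the first set. The count of both directions, 57, was 14 without Ctrl1 replicate 1, 34 without Ctrl1 replicate 2 and 19 without PLA1 replicate 2. With upper-quartile scaling 30 rose and 8 fell, and the balance over all genes went from 1900 up and 1538 down to 1326 up and 1972 down. The marker shifts between Ctrl1 and PLA1 given above stand beside these counts too.

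In the neuron set few of these genes passed. The test called 1 of 148, while 0.376% of all genes rose and 0.501% fell. The gene was Tia1, whose protein aids recognition of weak splice sites, and it rose from 14.7 ± 0.773 to 23.5 ± 0.00308 RPKM (log2 change 0.64, adjusted p = 0.0488). It also rose in the first set (0.56, adjusted p = 0.00742), the one gene of the 148 tested in both sets to do so. Tia1 had been placed in the list of SR-related and speckle proteins. The lists were drawn up with earlier results of these data known, so its rise in both sets is a description only. In the neuron set 0 listed genes rose when any one of the 4 libraries was left out, so the call of Tia1 rests on all 4. At an unadjusted p under 0.05 there were 30 of 148, beside 1976 of all 11179 genes tested (17.7%). The list medians ran from -0.18 for the core spliceosome, with 8 of 50 genes above 0, to 0.19 for SR-related and speckle proteins, with 22 of 27 above 0.

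Of the nuclear long noncoding RNAs 2 of 3 tested rose in the first set and 1 of 3 in the neuron set. Their sum was 37.9 to 39.7 RPKM in Ctrl1 and 51.0 to 64.5 in PLA1, and 55.1 to 58.0 in Neuron-ctrl and 78.2 to 81.0 in Neuron-PLA, higher in both treated groups. Transcripts that host small nucleolar RNAs, many of which are cleared by nonsense-mediated decay, rose for 3 of 6 tested in the first set (24.3 to 32.1 against 46.5 to 52.6 RPKM) and for 0 of 6 in the neuron set (39.2 to 40.2 against 43.6 to 46.3). Their part in the members' values was not tested.

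In the knockdown 0 of 150 listed splicing genes were called, with medians from -0.04 to 0.02. At an unadjusted p under 0.05 there was 1, against 1.47% of all genes. Over the stages 103 of 150 fell and 1 rose, against 25.5% and 19.6% of all genes, in libraries whose mitosis markers went from a sum of 352 to 18.7 RPKM, and the part of those in these counts was not tested. The core spliceosome fell for 43 of 51 (median slope -0.11 per day), with Sf3a3, Snrnp40 and Snrpe at -0.21 each. The hnRNP list fell for 21 of 23 (median -0.15), with Hnrnpf from 121 RPKM at E11 to 27.1 at E18. SR proteins fell for 10 of 11, led by Srsf3 (96.7 to 32.6 RPKM), Srsf1 (118 to 41.9) and Srsf10 (34.1 to 11.3), while Srsf12 rose from 1.21 to 7.67 RPKM. Exon junction genes fell for 4 of 9 (Magoh from 161 to 52.2 RPKM), cyclins and kinases of transcription for 9 of 12, speckle proteins for 11 of 27, SR protein kinases for 3 of 7 and decay genes for 2 of 10, the last no larger a share than among all genes. Without E18, 31 fell and 1 rose. Beside these, the members Clk1 and Rsrp1, with slopes of -0.02 and 0.03 per day, did not pass.

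**Figure D4:**
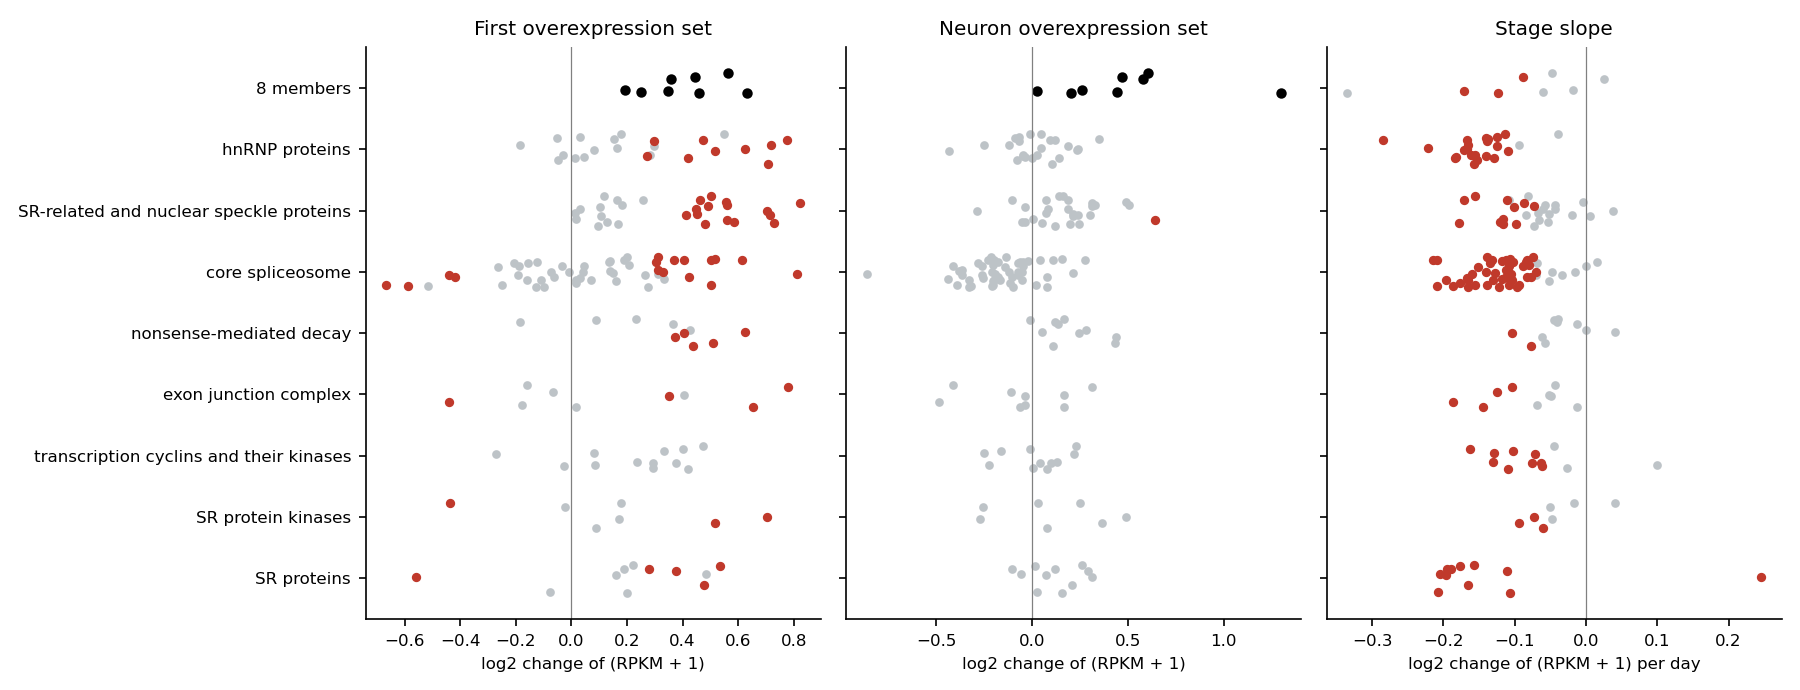
Log2 change of RPKM + 1 (horizontal axis; per day in the third panel) of each gene of the 8 splicing lists and of the 8 members. Red points have an adjusted p under 0.05 and grey ones do not. Members are black and untested in the overexpression sets. Speckle proteins lie to the right of 0 in the first set, and most listed genes lie to the left of 0 in the stage slope.

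Members resembled one another unevenly. With values centred in each table, Pearson's r over the 18 libraries was highest for Ccnl2 with Srsf5 (0.89), Clk4 with Srsf5 (0.87) and Ccnl1 with Srsf5 (0.86), and lowest for Rsrp1 with Srsf6 (0.02) and with Cwc22 (0.14). Over the 6 stages alone Ccnl1 with Srsf6 (0.98), Srsf5 with Srsf6 (0.95) and Clk4 with Srsf5 (0.95) were close, and Rsrp1 ran against Cwc22 (-0.24) and Ccnl1 (-0.21). These are descriptions over libraries that share tables, treatments and depth, and the first includes the contrasts that chose members.

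**Figure D5:**
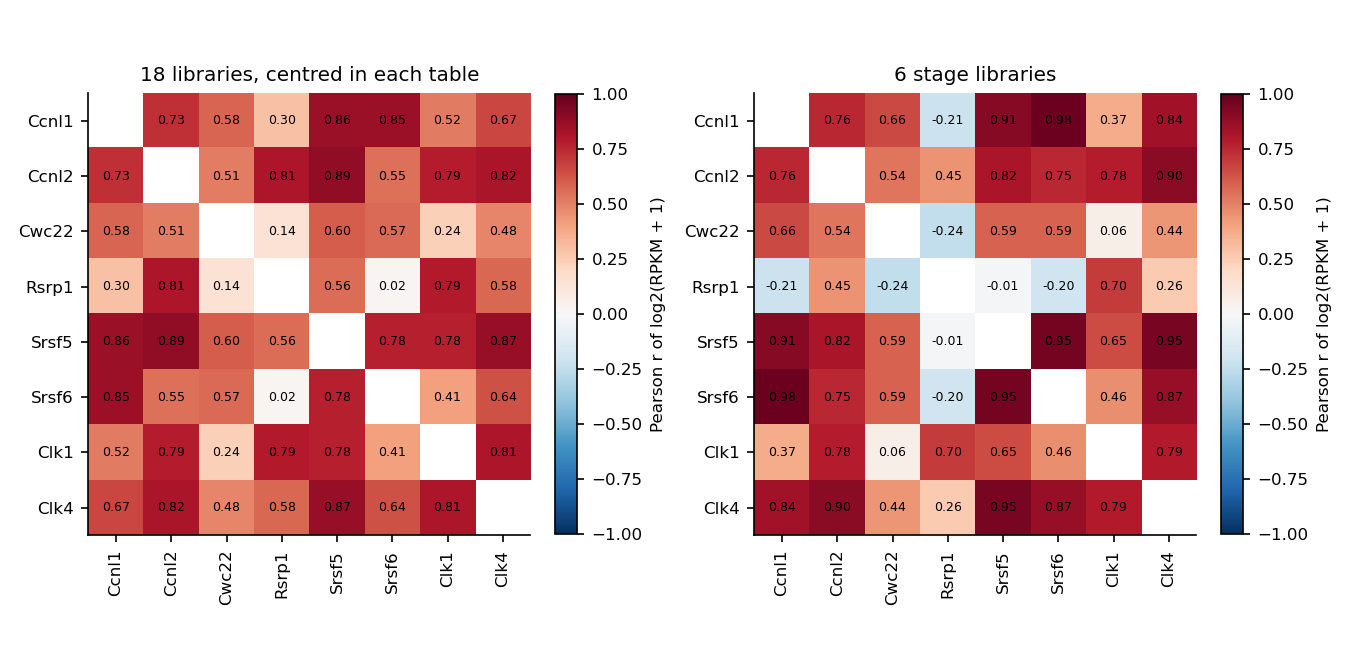
Pearson correlation of log2(RPKM + 1) between members, over the 18 libraries centred in each table (left) and over the 6 stage libraries (right). Colours run from -1 (blue) to 1 (red). The palest square belongs to Rsrp1 on both sides, 0.02 with Srsf6 on the left and -0.01 with Srsf5 on the right.

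A search over 4908 genes, each averaging 5 RPKM or more in every table, gave the genes most like each member over the 18 centred libraries. Tia1 came first for Ccnl2 (r = 0.96) and Clk1 (0.89) and second for Clk4 (0.88). Srsf6 was most like Top2a (0.98) and Mcm5 (0.98), genes of DNA topology and replication. Ccnl1 was most like Parp2 (0.97) and the decay factor Upf3b (0.96), Srsf5 like Akap8 (0.96), Rsrp1 like Cplane1 (0.95) and Clk4 like Fam135a (0.89). Cwc22 had the weakest best match, Med1 (0.82), and over the stages alone it was most like Tagap1 (0.98). Ccnl2, Clk1 and Clk4 thus shared Tia1 as a neighbour. The 18 libraries include the contrasts that chose members, and Tia1 passed the test with a rise in both sets. Its match with Ccnl2 therefore partly restates that choice, and all these matches are descriptions only.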

How the data were processed

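The 4 deposited tables hold RPKM per gene and library, a unit read from the values because no header names it. Per the submitters' processing notes, STAR 2.7.9a, HTSeq 0.6.0 and mm10 were used, and other settings are not given in the sources used here. RPKM times the GENCODE M21 merged exon length and a read total per library came out as whole reads (tolerance 0.01) for 97.5% to 97.8% of values, and 97.1% of genes could be given a length. Replicate pairs differed by more than sampling noise.

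limma 3.58.1 (R 4.3.3, mean-variance trend) was run on log2(RPKM + 1), in each table alone, for genes averaging 1 RPKM or more, with Benjamini-Hochberg adjusted p under 0.05 over all genes tested. Treated pairs were compared with control pairs, and stages by the slope on embryonic day. Alternatives were the pseudocount, the filter, scaling, limma-voom on recovered reads, left-out libraries and a replicate block. The samples were grouped by their titles.

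Members and lists were chosen with earlier results of these data known. Named genes were all members, the targeted genes, up to 3 called genes per direction from each of the 8 splicing lists, and the 3 genes most like each member. Eif4a3 and Cdk11b, known partners of CWC22 and of cyclin L, were named in the first set outside that rule, after their values were seen. Some results that this rule names are not reported here. The lists were SR proteins, SR protein kinases, transcription cyclins and kinases, exon junction complex, nonsense-mediated decay, core spliceosome, SR-related and speckle proteins and hnRNP proteins. Markers of radial glia, neurons, mitosis, microglia, astrocytes, oligodendrocytes, endothelium, erythroid cells, nuclear noncoding RNAs and small nucleolar RNA hosts were read beside them. Of the listed symbols, 3 were not matched (Rian, Snhg17 and Hbb-bs).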

Additional observations from a re-analysis of the deposited data

Results flagged for a closer look

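Among the named splicing genes, 3 had both treated libraries on one side of the controls in the first overexpression set and on the other side in the neuron set. The listed genes were named for large called changes, and the share of all genes that switch sides was not computed. Of all genes tested, 39.6% lay above and 29.7% below both controls in the first set, and 24.7% and 25.3% in the neuron set. Nothing is read from the count. Srsf12, an SR protein, changed by -0.56 on the log2 scale in the first set and stood at 0.31 in the neuron set, a difference of -0.87. Sf3a2, of the U2 particle, stood at 0.81 and -0.86, a difference of 1.68. Its level was low and uneven in the first set, at 1.22 ± 0.450 RPKM in Ctrl1 and 2.95 ± 1.17 in PLA1 (SD). Sf1, the branch point binding protein, stood at 0.61 and -0.23, a difference of 0.84. In the neuron set none of these values passed the test, and the differences between the sets were not tested. No member behaved in this way.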

How the results depend on the processing

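In the first overexpression set 57 listed splicing genes were called, 9 without a filter on low values and 14 to 51 with 1 library left out. In the neuron set the 1 called gene became 0 with a pseudocount of 0.1 RPKM, 2 with a filter at 5 RPKM, 0 without a filter, 4 by limma-voom on recovered reads, 0 with a replicate block and 0 to 1 with 1 library left out, where the 1 (without Neuron-PLA replicate 2) was a gene that fell, not Tia1. The listed genes raised in both sets, 1 in the main analysis, numbered 0, 2, 0, 4 and 0 under those settings and 0 to 1 with 1 library left out. Over all genes, calls in the neuron set were 98, against 0 without a filter, 216 with the filter at 5 RPKM, 343 by limma-voom, 54 with the block and 7 to 163 with 1 library left out. Calls in the first set were 3438, against 1177 without a filter and 1575 to 3294 with 1 library left out, and genes raised in both sets were 15, against 0, 25 and 50 without a filter, with the filter at 5 RPKM and by limma-voom. Over the stages 1 to 4 members and 32 to 109 listed genes were called with 1 library left out, the lowest counts without E18, when 2537 genes in place of 5828 were called. The cause of these shifts was not tested.

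None of the values that changed sign had passed a test. In the knockdown Clk1 stood at 0.0028 with median-ratio and 0.0012 with upper-quartile scaling, and with 1 library left out Clk1 ran from -0.0099 to 0.0026, Ccnl1 from -0.090 to 0.062 and Srsf6 from -0.14 to 0.11. The stage slope ran from -0.067 to 0.0014 for Ccnl2, from -0.50 to 0.029 for Cwc22 and from -0.052 to 0.022 for Clk1, positive without E18. All members kept a positive change in the first set under the settings run, the lowest being 0.093 for Clk1, and Srsf6 in the neuron set ran from -0.09 to 0.14. Same-numbered libraries correlated weakly in their deviations (r = 0.06 in the knockdown, 0.20 in the first and 0.05 in the neuron set), and with a replicate block 67 listed genes were called in the first set and 0 in the knockdown.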

Other observations

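The 15 genes raised in both overexpression sets also held genes that are neither members nor Plaat3, and those below are named after their values were seen. Miat, a nuclear noncoding RNA of neurons, rose by 0.79 on the log2 scale in the first set and by 0.93 in the neuron set. Nvl, which encodes a nucleolar ATPase of ribosome assembly, rose by 0.57 and 0.98, and Wsb1, a ubiquitin ligase adaptor gene, by 0.32 and 0.64. Gramd1a, a sterol transfer gene, rose by 0.50 and 0.59, and Tia1 by 0.56 and 0.64. The Erdr1 entry that rose did so by 0.90 and 1.21, and the other entry with that symbol passed the test in neither set. The symbol Bcl2l2 belongs to more than 1 gene in the tables, and Mir6905 and Mir7031 are microRNA entries, whose RPKM in a library of longer RNA is hard to read. Falls in both sets numbered 20 of 10424 genes.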
